A study of Mus musculus with 46 samples.

Results

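Coch, Otos, Otor and Ucma encode secreted proteins of the inner ear and its cartilage, and they are described here across 46 single cells from the mouse cochlea. They were taken by symbol from the deposited expression table, as 4 of its 29871 genes, and all 4 were found. The cells came from C57BL/6 mice at postnatal day 10 with the genotype Dio2creERt2:Ai6, of which the labels call the Dio2 allele heterozygous. In these animals a tamoxifen-dependent Cre recombinase is made from the Dio2 gene, and Ai6 is a reporter that stays switched on in any cell where Cre has acted, and in its descendants. Fluorescent cells were picked one at a time with a suction pipette after papain treatment, so a marked cell need not express Dio2 when picked, and shares of cells hold for the picked cells only. All cells carry 1 group label and no animal is named, so they were treated as 1 sample and no test between cells was made.

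Cochlin, the product of Coch, is an abundant matrix protein of the cochlea with an LCCL domain and von Willebrand factor A domains, and it is known as a product of the fibrocytes, the connective tissue cells of the spiral ligament and spiral limbus. Otos encodes otospiralin, a small secreted protein of the same fibrocytes that mice need for normal hearing. Otor encodes otoraplin, a secreted SH3-fold protein of the MIA family, named after the melanoma inhibitory activity protein of cartilage. Ucma encodes a cartilage protein rich in gamma-carboxyglutamate (Gla), a vitamin K-dependent residue that binds calcium, and the protein is known to restrain calcification.

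The 4 genes lie apart in the genome (GRCm38, GENCODE M21 annotation). Coch (NCBI Gene 12810) spans 51593341 to 51605771 on the plus strand of chromosome 12 and its principal transcript has 11 exons and 2681 bases. Otos (NCBI Gene 260301) spans 92644218 to 92648841 on the minus strand of chromosome 1, with 5 exons and 704 bases. Otor (NCBI Gene 57329) and Ucma (NCBI Gene 68527) are both on the plus strand of chromosome 2, at 143078473 to 143081713 and at 4976122 to 4985748, with 4 exons and 949 bases and with 5 exons and 847 bases. No other annotated gene overlapped any of them (0 for each), on either strand.

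The promoters are shown because 3 of these genes were high together in the same cells. The stretches below are from RefSeq (GRCm38.p6), written in the direction of transcription, and end where any RefSeq transcript of the gene begins. For Coch and Otos this left out the last 58 of the 250 bases, so 192 are printed. Positions of matches are counted from the end of the full 250 bases, and GC content is that of the full 250 bases. They cover chr12:51593091-51593282 (plus strand), chr1:92648900-92649091 (minus strand), chr2:143078143-143078392 (plus strand) and chr2:4975872-4976121 (plus strand). Capitals mark matches on either strand to any of 5 motifs searched in the 250 bases before each start, and no matches overlapped. The TATA box was searched as TATAAA. For the RUNX family of bone and cartilage regulators the letters were TGTGGT. The SOX family, which includes the cartilage regulator Sox9, was searched with ACAAAG. For POU factors such as Pou3f4 of the otic fibrocytes the octamer ATGCAAAT was taken. Nuclear receptors, among them those of thyroid hormone, were searched with the letters AGGTCA.
Coch: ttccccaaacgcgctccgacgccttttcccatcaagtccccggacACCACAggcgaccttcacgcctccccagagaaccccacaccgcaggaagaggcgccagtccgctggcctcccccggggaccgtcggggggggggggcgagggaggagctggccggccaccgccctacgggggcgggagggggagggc
Otos: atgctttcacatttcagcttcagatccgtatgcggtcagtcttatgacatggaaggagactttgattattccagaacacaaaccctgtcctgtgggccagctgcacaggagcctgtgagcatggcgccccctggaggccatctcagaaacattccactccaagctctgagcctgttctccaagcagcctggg
Otor: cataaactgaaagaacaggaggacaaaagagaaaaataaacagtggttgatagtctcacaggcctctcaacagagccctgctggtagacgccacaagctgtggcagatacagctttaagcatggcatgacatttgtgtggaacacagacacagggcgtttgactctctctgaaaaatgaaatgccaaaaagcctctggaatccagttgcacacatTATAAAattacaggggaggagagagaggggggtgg
Ucma: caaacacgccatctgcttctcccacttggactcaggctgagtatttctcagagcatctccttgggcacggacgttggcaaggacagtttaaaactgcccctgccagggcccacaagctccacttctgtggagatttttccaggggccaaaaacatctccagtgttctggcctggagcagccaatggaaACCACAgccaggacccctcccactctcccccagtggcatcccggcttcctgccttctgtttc
Otor held a TATA box letter match starting 35 bases before its start, which 12.37% of 32851 promoter windows of the same length held. Coch and Ucma each held 1 RUNX match, at 205 and 62 bases before the start, against 14.05% of all windows. The window of Otos held none of the 5 motifs. The SOX, POU octamer and nuclear receptor letters, held by 16.46%, 1.601% and 14.02% of all windows, were found in none of the 4 windows. The Coch window had a GC content of 74.8%, above the 95th percentile of all windows (73.6%), while Otos, Otor and Ucma had 54%, 46% and 56.4% around a median of 52.4%. These letter matches are a description and were not tied to binding of any factor.

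Depth did not limit the detection of these genes. Each cell had 2522853 to 10350249 reads in the listed genes (median 4789573), recovered from the deposited CPM (reads per 1000000 reads of the cell). Between 3351 and 7143 genes per cell were at a CPM of at least 1, and mitochondrial genes took 0.456% to 2.98% of the reads. Without molecular identifiers, the reads of a gene in a cell may be copies of few molecules, and the intervals below cover counting of cells only. To place the genes, cells were grouped by the expression of other genes, leaving out these 4 and every gene of the marker and pathway lists, into 6 clusters of 13, 10, 9, 5, 5 and 4 cells. Cluster 1 was osteoblast-like, with 8 of 9 markers of bone-forming cells, and cluster 6 was macrophage-like, with 7 of 7 markers. Clusters 2 to 5 could not be named from markers other than these genes. In cluster 3, for example, 4 of 8 fibrocyte markers (Gjb2, Gjb6, Car3 and Tbx18) and 4 of 8 cartilage markers (Col9a1, Col9a2, Lect1 and Sox9) passed. The clusters partly follow the numbering of the cells, and what set the numbers is not given in the labels.

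Coch was the most widely held of the 4 genes. It ranged from 33.5 CPM in cell 42 to 97304 CPM in cell 18, with a median of 7629 CPM and a mean of 13805 ± 20074 CPM (SD, n = 46 cells). At a CPM of at least 100, the level used below to say that a cell held a gene, Coch was found in 38 of 46 cells (82.6%, exact Clopper-Pearson 95% interval 68.6% to 92.2%), and at 10000 CPM or more in 21. By CPM it was the most abundant gene of the cell in 8 cells and among the top 10 in 26. Coch was therefore spread over most classes of picked cells, with the 8 cells below 100 CPM lying in clusters 1, 2, 5 and 6.

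Otos was nearly all or nothing. Its median was 34.9 CPM and its maximum 46242 CPM in cell 23, and the 10 highest cells held 99.4% of its summed CPM. No cell lay between 112 and 1213 CPM. Above that gap were 9 cells, numbered 23 to 29, 31 and 32, with 46242, 7832, 21334, 10274, 27603, 27197, 43262, 1213 and 22478 CPM in that order. The other two cells past 100 CPM, osteoblast-like cell 3 (108 CPM) and macrophage-like cell 43 (112 CPM), stood close to the remaining cells. With them the count at 100 CPM was 11 of 46 cells (23.9%, 12.6% to 38.8%).

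Otor was held by more cells than Otos and had a wide gap as well, between 201 and 1300 CPM. It was at 100 CPM or more in 20 cells (43.5%, 28.9% to 58.9%) and above the gap in 18. Its median over all cells was 23.6 CPM and its maximum 31115 CPM in cell 25. Among the 18 cells above the gap were 7 of the 10 cells of cluster 2, all 9 of cluster 3, and 1 each of clusters 4 and 5 (cells 26 and 39, at 1328 and 1326 CPM). The 2 cells below the gap that passed 100 CPM were osteoblast-like cell 1 at 103 CPM and cell 20 of cluster 4 at 201 CPM.

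Ucma reached 5475 CPM in cell 23. It was at 100 CPM or more in 11 cells (23.9%, 12.6% to 38.8%) and at 1000 CPM or more in 9, which were the 9 cells of cluster 3. Those 9 cells, numbered 18, 23, 24, 25, 27, 28, 29, 31 and 32, had 2518, 5475, 1492, 1606, 2073, 3267, 2979, 4629 and 3087 CPM. Cells 16 and 30 of cluster 2 followed with 213 and 699.9 CPM. A smaller signal of 47.8, 29.9, 29.6 and 21.8 CPM stood in cells 14, 2, 26 and 45, and every other cell was at or below 3.70 CPM.

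**Figure D1:**
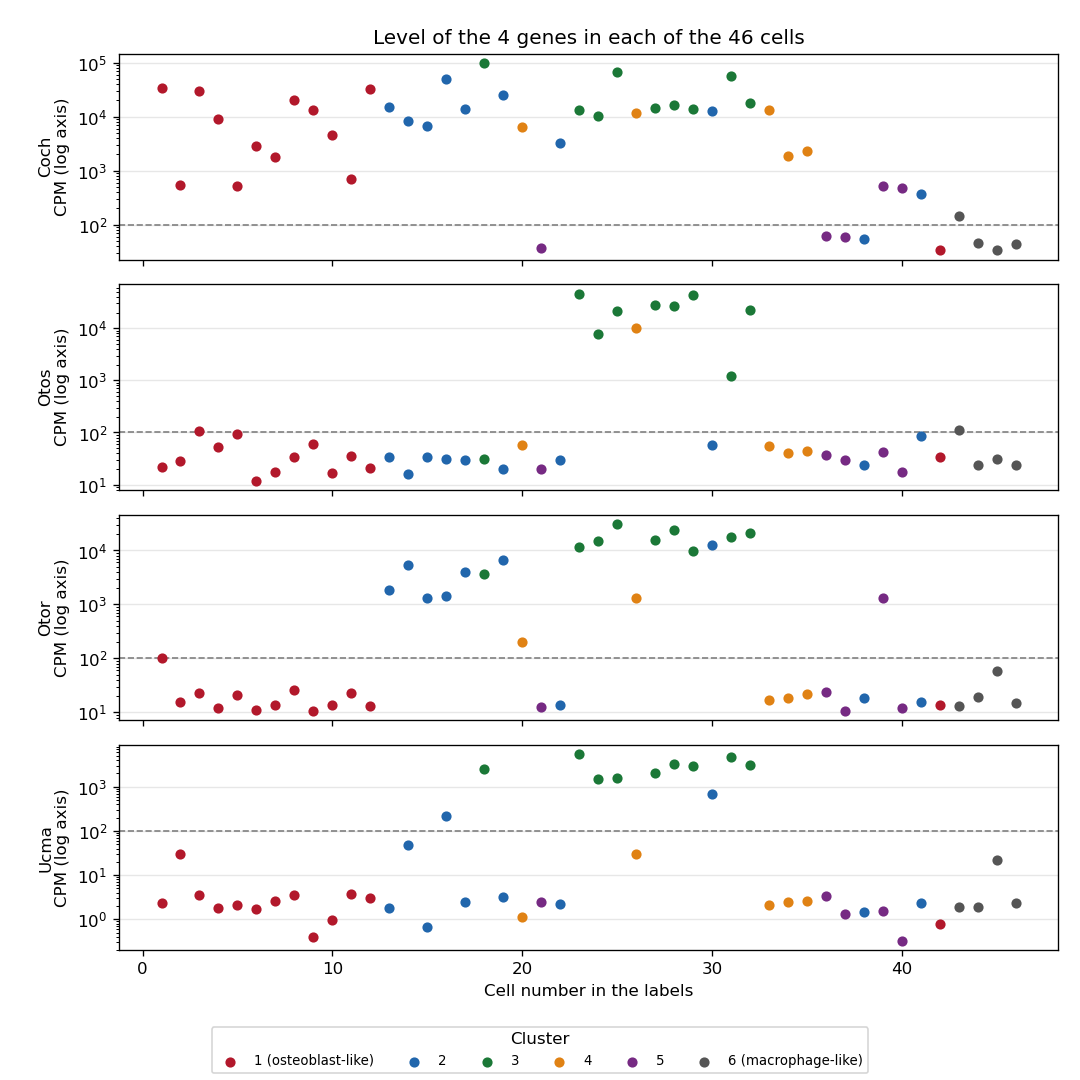
CPM of Coch, Otos, Otor and Ucma (log axes, 1 panel per gene) in each of the 46 cells, ordered by the cell number in the labels and coloured by cluster; the dashed line is 100 CPM. Otos is above 1000 CPM in 9 cells between numbers 23 and 32, Otor in 18 cells, and Coch in 31 cells across clusters 1 to 4.

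No cell was free of reads of any of the 4 genes. The lowest cells had 168 reads of Coch, 68 of Otos, 55 of Otor and 2 of Ucma. In cells below 100 CPM the median was 43.9 CPM for Coch, 30.9 for Otos, 15.3 for Otor and 2.35 for Ucma, which is 0.318%, 0.681%, 0.379% and 0.383% of the mean of each gene over all cells. The macrophage-like cells, which are not known as a source of these proteins, were in the same range, with 33.9 to 141 CPM of Coch, 23.6 to 112 of Otos, 13.3 to 59.6 of Otor and 1.86 to 21.8 of Ucma. Their median depth was 4331867 reads, against 5328990 in cluster 3. Levels in this range are not read as expression here, and their source was not tested. The range reaches past 100 CPM for Coch and Otos through cell 43, so the counts at 100 CPM include that cell, and osteoblast-like cell 3 for Otos, at levels of this kind.

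The cells that held the genes were largely nested. At 100 CPM, all 11 cells with Otos, all 20 with Otor and all 11 with Ucma also held Coch, and all 11 with Ucma held Otor. Of all 46 cells, 82.6% held Coch and 43.5% held Otor, so the overlap with Coch by itself says little. Of the 11 Otos cells, 9 held Otor (not cells 3 and 43) and 8 held Ucma, and 8 of the 11 Ucma cells held Otos. At 1000 CPM, 9 of 9 Otos cells held both Coch and Otor, and 8 of 9 held Ucma, the exception being cell 26. In the other direction, 9 of the 18 Otor cells and 9 of the 31 Coch cells held Otos. One cell at this level, cell 39 of cluster 5, had Otor (1326 CPM) with Coch at 524.5 CPM.

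By joint pattern at 100 CPM, 16 cells held Coch alone (34.8%, 21.4% to 50.2%). These were 10 osteoblast-like cells, 3 of cluster 4, 2 of cluster 2 and 1 of cluster 5. Coch and Otor without Otos or Ucma were held by 8 cells, and Coch, Otor and Ucma without Otos by 3 cells (16, 18 and 30). Coch with Otos alone was held by 2 cells (3 and 43), and Coch, Otos and Otor without Ucma by 1 (cell 26). All 4 genes were held by 8 cells (17.4%, 7.82% to 31.4%), each of them in cluster 3. The pattern of the same 8 cells was unchanged at 1000 CPM. None of the 4 was held by another 8 cells, of which 3 were macrophage-like, 3 were in cluster 5, and cells 38 and 42 were in clusters 2 and 1.

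**Figure D2:**
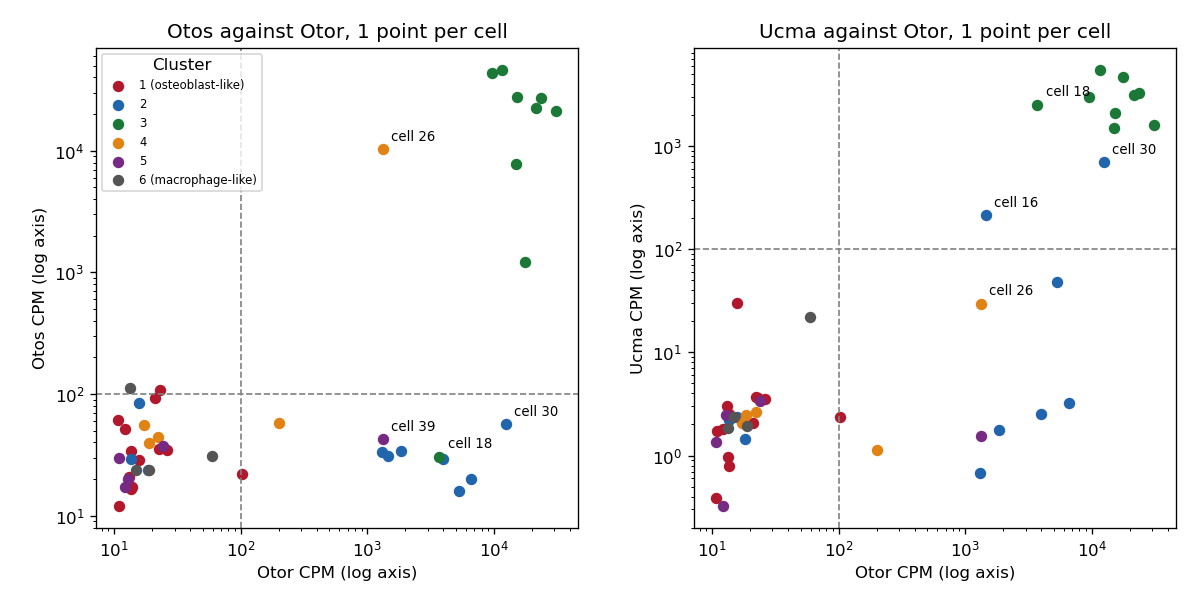
Otos (left) and Ucma (right) against Otor, all in CPM on log axes, with 1 point per cell coloured by cluster and dashed lines at 100 CPM. Cells with high Otos sit at Otor levels of 1328 CPM or more. Cells 13 to 19, 30 and 39, among them the labelled cells 18, 30 and 39, have Otor above 1000 CPM at the low level of Otos. Ucma is above 1000 CPM in the 9 cells of cluster 3.

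Across all 46 cells the Pearson correlation of log2(CPM + 1) was highest for Otor and Ucma (0.81) and for Otos and Ucma (0.79), then Otos and Otor (0.68), Coch and Otor (0.60), Coch and Ucma (0.49) and Coch and Otos (0.38). These are descriptions without a test, since the cells share their labels, preparation and possibly animals. Spearman's rho for Otos and Ucma was lower, at 0.44, and most cells lay at the low level of both. None of the 4 had a rho beyond 0.25 in size with the number of reads over all cells.

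Within cluster 3 the pairs differed from those over all cells. Over its 9 cells the Pearson correlation of log2(CPM + 1) was -0.73 for Coch and Otos (Spearman's rho -0.62, and -0.45 without cell 18) and 0.67 for Otos and Otor, where rho was -0.05. The other four pairs lay between -0.22 and 0.04 by Pearson. The 9 cells all held Coch (10138 to 97304 CPM), Otor (3716 to 31115 CPM) and Ucma, with Ucma the least variable at 3.67-fold from lowest to highest cell, against 8.37-fold for Otor and 9.60-fold for Coch. The 3 cells with the most Coch were 18, 25 and 31, at 97304, 68394 and 57313 CPM, and the other six were at or below 18282 CPM. Otos was at 30.5, 21334 and 1213 CPM in those 3 cells. Gjb6, the gap junction gene connexin 30 that joins fibrocytes, was at 1.36, 203 and 399.8 CPM in them and at 1555 to 4098 CPM in the other six. Spearman's rho of Coch with Gjb6 over the 9 cells was -0.75, and -0.64 without cell 18. How many of all genes had a rho of that size with Coch was not counted. Coch also had a rho of -0.60 with the number of genes at 1 CPM in these cells, and Otos one of 0.85, and the part of that measure in the pattern was not tested.

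The ratio between genes also varied from cell to cell. In the 9 cells above the Otos gap, Otos per Otor, both taken per kilobase of transcript, ran from 0.0922 in cell 31 to 10.4 in cell 26. Cells 23 and 29 were Otos-rich with ratios of 5.37 and 6.07. In cells 24 and 25 the ratio was 0.710 and 0.924. These ratios are per kilobase of the principal transcript (704 bases for Otos). Per kilobase of all annotated exons of the gene (3082 bases for Otos) they were lower, from 0.0211 in cell 31 to 2.38 in cell 26, with 1.23 and 1.39 in cells 23 and 29 and 0.162 and 0.211 in cells 24 and 25. Cells 27, 28 and 32 turned from Otos ahead (2.43, 1.55 and 1.41) to Otor ahead (0.554, 0.355 and 0.322), while the order of the cells stayed as it was.

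By cluster, Coch had medians of 16725, 10585, 6519 and 4662 CPM in clusters 3, 2, 4 and 1, and of 60.8 and 43.9 CPM in clusters 5 and 6. Mean log2(CPM + 1) was 14.58 ± 1.21 (SD, n = 9) in cluster 3, 12.32 ± 2.99 (n = 10) in cluster 2 and 11.79 ± 3.01 (n = 13) in cluster 1, so neighbours in this order overlapped by their SD. The lowest cell of cluster 4 (1835 CPM) was above the highest of cluster 5 (524.5 CPM), and how many other genes were separated in this way was not counted. Otor medians were 15338 CPM in cluster 3 and 1654 in cluster 2, and 12.8 to 22.3 CPM in the others. The 7 cells of cluster 2 with Otor ranged from 1300 to 12399 CPM, and its cells 22, 38 and 41 stood at 13.5, 18.3 and 15.7 CPM.

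All 4 genes were at least 2 log2 units higher in cluster 3 than in the osteoblast-like cells, beside 7.27% of the 11447 genes compared (18.7% differed by that size in either direction and 11.5% were lower). The differences in mean log2(CPM + 1) were 2.79 for Coch, 7.93 for Otos, 9.55 for Otor and 9.59 for Ucma, and the pooled SDs over cells were 2.46, 2.29, 0.861 and 0.928. Ucma and Otor had the largest and second largest difference of all genes in that direction. For Otor the lowest cell of cluster 3 (3716 CPM) was above the highest osteoblast-like cell (103 CPM). For Ucma the lowest cell of cluster 3 (1492 CPM) was above the highest osteoblast-like cell (29.9 CPM) and the highest of cluster 2 (699.9 CPM). How many of all genes were separated in this way was not counted, so these separations are a description only. Against cluster 2 the differences were 2.26, 7.997, 4.36 and 8.07, again 4 of 4, beside 6.57% of all genes higher and 6.19% lower. The difference of Coch was below its pooled SD there (2.33).

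Cluster 2 and the osteoblast-like cells differed by 2 log2 units in 1 of the 4 genes, Otor (5.19, beside 5.54% of genes higher and 9.33% lower in cluster 2). Coch, Otos and Ucma differed by 0.53, -0.06 and 1.52. Osteoblast-like cells stood above the macrophage-like cells in Coch alone (5.98, beside 17.3% of genes), with differences of -0.16, -0.26 and -0.49 for Otos, Otor and Ucma. The clusters were made from genes that vary with these 4, so these sizes are not independent evidence of a class. In 2 alternative clusterings, clusters 2 and 3 fell together. With 5000 variable genes the joint cluster held 16 cells, all from clusters 2 and 3, and Coch was 2.37 higher there than in the cells matching the osteoblast-like cluster. With average linkage it held 24 cells, the 19 of clusters 2 and 3 with cell 42 and 4 cells of cluster 5, and the difference of Coch was -0.32.

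Levels of different genes can be compared only per length. In cluster 3 the median CPM per kilobase of transcript was 31930 for Otos, 16163 for Otor, 6238 for Coch and 3517 for Ucma. By CPM alone Coch came before Otor. The order also depends on the length taken: per kilobase of all annotated exons, the medians were 16163 for Otor, 7293 for Otos, 5579 for Coch and 3370 for Ucma. Ranges of CPM per kilobase over the 9 cells overlapped among Otos (43.3 to 65684), Otor (3915 to 32787), Coch (3781 to 36294) and Ucma (1761 to 6464).

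The 4 genes together took a mean of 2.30% ± 3.08 (SD, n = 46) of all reads of a cell, with a median of 0.857%. The highest share was 12.2% in cell 25, of which Coch took 6.84%, Otor 3.11%, Otos 2.13% and Ucma 0.161%. Cell 18 followed with 10.4%, nearly all of it Coch (9.73%). In cluster 3 the share was 3.43% to 12.2% (median 7.08%), and in cluster 2 it was 0.00984% to 5.23% (median 1.53%). Osteoblast-like cells ranged from 0.00823% to 3.46% (median 0.469%), through Coch, whose own median share there was 0.466%. The shares in cluster 5 were at most 0.189% and in the macrophage-like cells at most 0.0269%. Shares of reads grow with transcript length and are not shares of molecules.

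**Figure D3:**
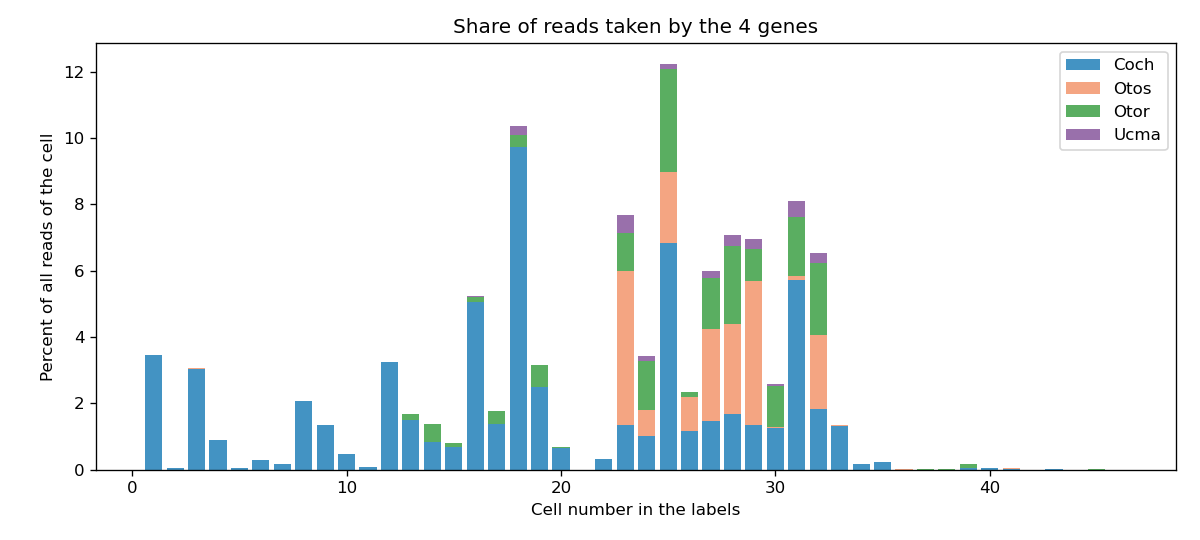
Percent of all reads of each cell taken by Coch, Otos, Otor and Ucma, as stacked bars from 0 in the order of the cell numbers. The highest bars are cell 25 at 12.2% and cell 18 at 10.4%, and in cells 1 to 22 the visible colour is mostly that of Coch.

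Within the osteoblast-like cells Coch ranged 1030-fold from the lowest to the highest cell. The other 3 genes stayed at low levels there (at most 108 CPM). The range of Coch rests on cell 42 (33.5 CPM), and in cells 1 to 12 Coch ran from 510 to 34506 CPM. Its levels in cells 1 to 12 were 34506, 544, 30509, 8962, 510, 2886, 1819, 20798, 13378, 4662, 702 and 32569 CPM, with cell 42 at 33.5 CPM. Cell 42 also had the lowest level in this cluster of the bone matrix gene Ibsp (107 CPM, median 24483 CPM). Of the 13 cells, 5, numbered 1, 3, 8, 9 and 12, were above 10000 CPM. Dio2, the deiodinase gene that drives Cre in these mice, was at 545, 81.6, 186, 166 and 157 CPM in those 5 cells. In the other 8 its median was 0.549 CPM and its highest values were 160 CPM in cell 11 and 49.4 CPM in cell 10. Spearman's rho of Coch and Dio2 over the 13 cells was 0.72, and 0.66 without cell 42. Dio2 was not alone in this, since the matrix gene Dcn had a rho of -0.67 with Coch (-0.58 without cell 42). Car3 and Ibsp had -0.16 and 0.12 (-0.48 and -0.12 without cell 42). How many of all genes had a rho with Coch as large as that of Dio2 was not counted. Coch had a rho of -0.65 with the number of genes at 1 CPM in the same cells, whose part was not tested. The rho of Coch and Dio2 was -0.67 in cluster 3, -0.01 in cluster 2 and 0.27 over all 46 cells.

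**Figure D4:**
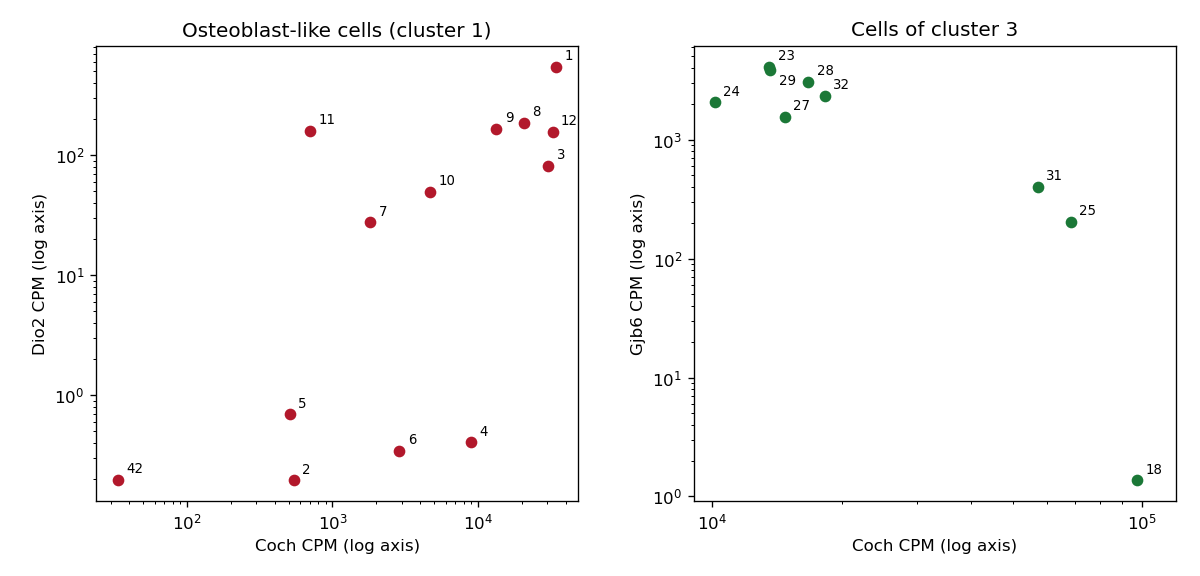
Left, Dio2 against Coch in the 13 osteoblast-like cells; right, Gjb6 against Coch in the 9 cells of cluster 3, all in CPM on log axes with 1 numbered point per cell. Dio2 is at 81.6 CPM or more in the 5 cells with Coch above 10000 CPM, and Gjb6 is at or below 399.8 CPM in the 3 cells with the most Coch (18, 25 and 31).

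For Dio2 by joint pattern, 2 of the 8 cells with all 4 genes were at 100 CPM or more, with a range of 0 to 599.8 CPM and a median of 16.4 CPM. The figure was 4 of 16 for cells with Coch alone, 4 of 8 for cells with Coch and Otor, and 2 of 8 for cells with none of the 4. For the remaining patterns it was 0 of 3 (Coch, Otor and Ucma), 0 of 2 (Coch and Otos) and 1 of 1 (Coch, Otos and Otor). The 8 cells with Coch and Otor came from clusters 1, 2, 4 and 5, and all these counts are small. Otos, Otor and Ucma had rho values of 0.02, 0.07 and -0.03 with Dio2 over all cells.

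The genes most alike to each member over the 46 cells were ranked by the Pearson correlation of log2(CPM + 1). For Coch they were Car3 (0.70), which encodes carbonic anhydrase III, the cartilage collagen gene Col11a2 (0.68), the protease inhibitor gene Serpine2 (0.68), the matrix gene Sparc (0.66) and Plpp1 (0.65). Their Spearman's rho with Coch ran from 0.49 (Col11a2) to 0.64 (Car3). Col11a2 was at 100 CPM or more in 33 of the 38 Coch cells and in 34 of all 46 cells, so this overlap by itself says little. Otor stood at place 12 of 10218 for Coch, and Otos at place 177.

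Otos was most like Msx3 (0.91), Hhatl (0.90), Cmtm5 (0.88), Megf9 (0.87) and Aif1l (0.87). Spearman's rho was lower, at 0.41, 0.51, 0.31, 0.64 and 0.56 in that order. Msx3, Cmtm5 and Megf9 had medians of at most 0.207 CPM over all cells, so their Pearson values rest on few cells. Msx3, a homeobox gene, was at 100 CPM or more in 6 cells, all of them among the 11 with Otos, and reached 670.2 CPM. Hhatl was found in 11 cells, 9 of them shared with Otos, with a median of 2426 CPM in cluster 3. Ucma was the member nearest to Otos, at place 9, followed by Otor at 23 and Coch at 321.

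Otor and Ucma shared 2 of their 5 nearest genes. For Otor they were Fbxo2 (0.89), Skp1a (0.85), Clec3a (0.84), Lcat (0.84) and Spint2 (0.81), and for Ucma they were Rprm (0.85), Psat1 (0.83), Fbxo2 (0.82), Clec3a (0.82) and Hhatl (0.82). Spearman's rho ran from 0.66 (Skp1a) to 0.81 (Lcat) for Otor, and from 0.52 (Psat1) to 0.72 (Rprm) for Ucma. Rprm had a median of 0.0647 CPM over all cells and reached 100 CPM in 4 cells, so its Pearson value rests on few cells. Medians of Psat1 and Clec3a over all cells were 0.428 and 0.457 CPM. Fbxo2 encodes an F-box protein that binds glycoproteins, and Skp1a encodes its partner in the ubiquitin ligase. Medians of Fbxo2 were 3274, 388 and 3.39 CPM in clusters 3, 2 and 1, and those of Skp1a were 6453, 2447 and 362 CPM. Clec3a, a cartilage lectin gene, was at 100 CPM or more in 12 cells, all with Otor. Ucma and Otor stood at place 6 of each other.

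Among relatives of Otor, Mia, the family's cartilage founder, was at 100 CPM or more in 8 cells, 7 of them in cluster 3, reached 695 CPM in cell 23 and was 3.81 log2 units higher in the 20 cells with Otor than in the other 26. Mia3, a gene of collagen export, differed by -0.66, and Mia2 had no read. Thus 1 of the 2 measured relatives was higher by at least 1 and 0 were lower, beside 14.9% and 18.8% of 8739 genes. The split is by the level of Otor itself, which makes it a description. In the 11 cells with Otos, Mia was 3.73 higher, and 2 of 3 measured family members (Mia and Otor) were higher and 0 lower, beside 14.9% and 19.9% of genes.

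Other genes with von Willebrand factor A domains did not follow Coch as a group. Of the 5 measured besides Coch, 1 was higher and 2 were lower by at least 1 in the 38 cells with Coch than in the other 8, with a median of -0.21 beside 0.02 for all genes, of which 18% were higher and 19.5% lower. The higher one was Vit, which encodes vitrin, a relative of cochlin with both domain types. Vit differed by 1.62, with medians of 216 and 35.1 CPM in clusters 3 and 2 and 0 in the osteoblast-like cells, where Coch had a median of 4662 CPM. Col6a1 and Col6a2 were the lower ones (-3.41 and -1.34), and Matn2 differed by 0.43. Matn1, Matn3 and Vwa2 had no read.

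Other Gla protein genes did not follow Ucma as a group. Of 5 measured, 0 were higher and 4 lower by at least 1 in the 11 Ucma cells (median -3.21, beside -0.17 for all genes, of which 16.3% were higher and 23.1% lower). The lower ones were the osteocalcin genes Bglap (-3.21), Bglap2 (-3.43) and Bglap3 (-3.46), near-identical bone genes whose split of reads is uncertain, and Pros1 (-1.80). Bglap2 had a median of 1610 CPM in the osteoblast-like cells and of 6.48 to 12.1 CPM in the other clusters. A low level of osteocalcin was therefore not particular to Ucma cells, and the comparison cells included the osteoblast-like ones. Mgp, another known calcification inhibitor, differed by -0.46 and was at a median of 0.926 CPM in cluster 3 and 113 CPM in cluster 2. Ucma was therefore the Gla protein gene with the highest median in cluster 3 (2979 CPM).

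Of 4 measured genes for the enzymes that make Gla residues, 0 were higher and 0 lower by at least 1 in Ucma cells (median 0.22, beside -0.17 for all genes). With 16.3% of all genes higher and 23.1% lower, so short a list can show little. Ggcx, the carboxylase, differed by -0.57 with a median of 0.154 CPM in cluster 3 against 144 CPM in cluster 2, Vkorc1, the vitamin K reductase, by 0.08, and Calu, whose product binds the carboxylase, by 0.37. Ggcx was at 100 CPM or more in 17 of the 46 cells.

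Genes of other inner ear matrices were mostly without reads. Of 9 genes of the tectorial membrane, otoconia and related matrices 5 had no read in any cell, among them Tecta, Tectb and Otol1, and none reached a CPM of at least 1 in 20% of cells. Only 8739 of all 29871 genes reached that level, so most genes of the genome failed it as well. How many of all genes had no read was not counted. Otoa, Emilin2 and Otogl reached 611, 523 and 268 CPM in cells 33, 37 and 17.

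Among matrix proteases of the aggrecanase kind, some of which cleave cochlin, and their inhibitor, Adamts5 and Adamts1 differed in opposite directions in Coch cells, by 1.70 and -1.23, and Timp3 by -0.56, so 1 of 3 was higher and 1 lower, beside 18% and 19.5% of all genes. All 6 cells with Adamts5 at 100 CPM or more were osteoblast-like. Its median was 0.248 CPM in cluster 3, where Coch was highest, and it differed by -2.33 in Otor cells and -1.74 in Ucma cells. Adamts4, an aggrecanase, was at 100 CPM or more in 1 cell. Timp3 had medians of 2019 CPM in cluster 2 and 236 CPM in cluster 3.

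Genes of the secretory pathway, which carries all 4 proteins out of the cell, were compared next. Of 15 signal peptide and translocon genes, 4 were higher and 0 lower by at least 1 in Ucma cells (median 0.37, beside -0.17 for all genes, of which 16.3% were higher and 23.1% lower), namely Srp9 (1.65), Ssr3 (1.30), Ssr1 (1.29) and Sec11c (1.18). A list of 15 genes can show little against these shares. Only Srp9 among the 4 had its highest cluster median in cluster 3 (272 CPM). Ssr3 had medians of 463 CPM in cluster 3, 574 in cluster 2 and 570 in the osteoblast-like cells. Ssr1 and Sec11c were at 242 and 85.6 CPM in cluster 3, and at 243 and 250 CPM in cluster 4. By the level of Coch 0 of these 15 were higher and 1 lower, beside 18% and 19.5% of all genes. By that of Otos 2 were higher and 1 lower, beside 14.9% and 19.9%. By that of Otor the counts were 2 and 0, beside 14.9% and 18.8%. Of 15 genes of protein folding in the endoplasmic reticulum 2 were higher and 4 lower in Ucma cells (median -0.38). These counts are near the shares of all genes in Ucma cells (16.3% and 23.1%). Sdf2l1 was at 2.10, Dnajb9 at -2.69 and Hspa5 and Hsp90b1 at -1.02 and -1.27. Medians of the chaperone gene Hspa5 were 659 CPM in cluster 3, 639.8 in cluster 4, 929 in the osteoblast-like and 1708 in the macrophage-like cells.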

How the data were processed

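Single cells were profiled with SMART-Seq v4 and ThruPLEX libraries, per the labels' protocols. Values are CPM as deposited by the authors, made with bcl2fastq 2 and STAR 2.7.3a on GRCm38 and mm10 per the submitters' processing notes. How reads were counted, with which annotation and strand setting, is not given in the sources used here. Whole reads were recovered for 100% of values above 0, within 0.01 read, and 0 columns were left unused. There is 1 labelled group, so no count test was run. The 11447 genes reaching 1 CPM in 5 or more cells were kept. Without all listed genes, 7 mitochondrial genes and ribosomal protein genes, the 2000 most variable on log2(CPM + 1) were reduced to 10 components and clustered by Ward linkage (2 to 6 clusters, highest silhouette). A cluster was named when at least 3 markers of 1 type passed 2 log2 units, no other type had as many and the top 10 genes held at least 1. Transcript lengths are from GENCODE M21. Named genes are the members, the 5 most alike genes and up to 4 genes of each list by mean CPM; further list genes were named after their values were seen. Members and lists were chosen with earlier results of these data known. The clustering and ranking were tested on simulated data. Python 3.11.15, scipy 1.17.1 and scikit-learn 1.9.0 were used.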

Additional observations from a re-analysis of the deposited data

How the results depend on the processing

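Limits of 10 and 100 CPM give different pictures, because every cell has low reads of these genes. At 1 and at 10 CPM, Otos and Otor were each counted in 46 cells. Ucma was counted in 41 cells at 1 CPM, and all 4 genes together in 41 cells at 1 CPM and 15 at 10 CPM. At both limits 0 cells held Coch alone, 0 held Coch and Otor without Otos, and 0 held none of the 4. At 1000 CPM 14 cells held none, and without the macrophage-like cells 5 did at 100 CPM. With 5000 variable genes and with average linkage, clusters 2 and 3 fell into 1 cluster, so their difference could not be given. Against cluster 1 the merged cells then differed by 4.32 and 2.89 for Otos, 8.36 and 5.88 for Otor and 6.36 and 3.995 for Ucma, and by 2.37 and -0.32 for Coch; the joint cluster under average linkage also holds cell 42 and 4 cells of cluster 5. A pseudocount of 10 gave 7.70 for Ucma between clusters 3 and 1. Spearman's rho for Otos and Ucma was 0.44. Without cell 42, an alternative chosen after seeing the data, the small Coch difference between clusters 2 and 1 was -0.03, and with no filter on low values it was -1.24. The share of reads, thinning to 2522853 reads per cell and CPM over the listed genes changed no value by more than its spread or 1.5 times. No paired analysis was possible because there is 1 labelled group.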
